A study of Mus musculus with 2 samples.

Results

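De novo lipogenesis is the pathway by which liver cells build fatty acids from surplus carbohydrate, and its 10 genes studied here were 2 transcription factors, 7 enzymes and 1 small regulatory protein. They were taken by gene symbol from the deposited tables, before any filter on their values, and are 10 of 37146 genes there. The tables come from the livers of CD-1 mice, an outbred strain. The NP group was given titanium dioxide nanoparticles by mouth at 50 mg per kg body weight per day, from a suspension stirred with ultrasound for 30 min, and the Control group was given phosphate-buffered saline. Each group is 1 RNA-seq library. The number of mice behind a library, their age and sex, the length of dosing and the feeding state at sampling were not stated in the labels.

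In the fed liver, citrate leaves the mitochondrion and ATP citrate lyase (Acly) splits it to acetyl-CoA. Acetyl-CoA carboxylase (Acaca in the cytosol, Acacb at the mitochondrion) makes malonyl-CoA, fatty acid synthase (Fasn) builds palmitate with NADPH that malic enzyme (Me1) helps to supply, and Elovl6 and Scd1 lengthen and desaturate the product. Insulin acts on these genes largely through SREBP-1c, a product of Srebf1, and glucose through ChREBP, the product of Mlxipl, while Thrsp (Spot 14) is a small protein that follows lipogenic demand. SREBP-1 is made as a precursor in the endoplasmic reticulum membrane and must be cut before it can act, and the mRNA level does not show how much of it was cut.

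Srebf1, Mlxipl and Thrsp were lower in NP with separate intervals, and the totals of the 7 enzymes had overlapping intervals. Values are FPKM (fragments scaled to the length of a row and to all mapped fragments), summed over all rows of a gene, with the 95% interval that the tables give for a library. That interval holds no spread between animals, so these are differences between 2 libraries, with no replicate check and no test. Srebf1 was at 14.0 FPKM in Control (interval 12.5 to 15.4) and at 5.33 in NP (4.63 to 6.03), 2.62-fold lower. Mlxipl was at 96.0 FPKM (91.1 to 101.0) and 73.5 (69.6 to 77.4), 1.31-fold lower. Thrsp was at 8.25 FPKM (6.45 to 10.1) and 5.03 (3.71 to 6.34), 1.64-fold lower. These were the 3 of 10 members in which all of the NP interval was under the Control interval, against 9.58% of the 10533 genes past the filter on low values (a mean of at least 1 FPKM), and 0 members lay wholly above, against 7.73%. All 10 members passed that filter.

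Of the members, 2 (Srebf1 and Thrsp) had an NP level lower by 1.5-fold or more when ratios were taken as log2(FPKM + 1), as had 5.33% of all genes. None of the 10 was 1.5-fold higher, a size that 3.6% of genes reached. Srebf1 alone was lower by over 2-fold (1.88% of genes), and no member was higher by that much (1.14%). The median log2 ratio of NP over Control was -0.15 over the members and -0.03 over all genes. Thrsp lay near both limits. Its log2 ratio was -0.62, and -0.40 with a pseudocount of 5 FPKM, which is within 1.5-fold. Its transcript row alone was at 7.27 FPKM in Control (5.50 to 9.05) and at 4.32 in NP (3.03 to 5.60), and these intervals overlap.

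**Figure D1:**
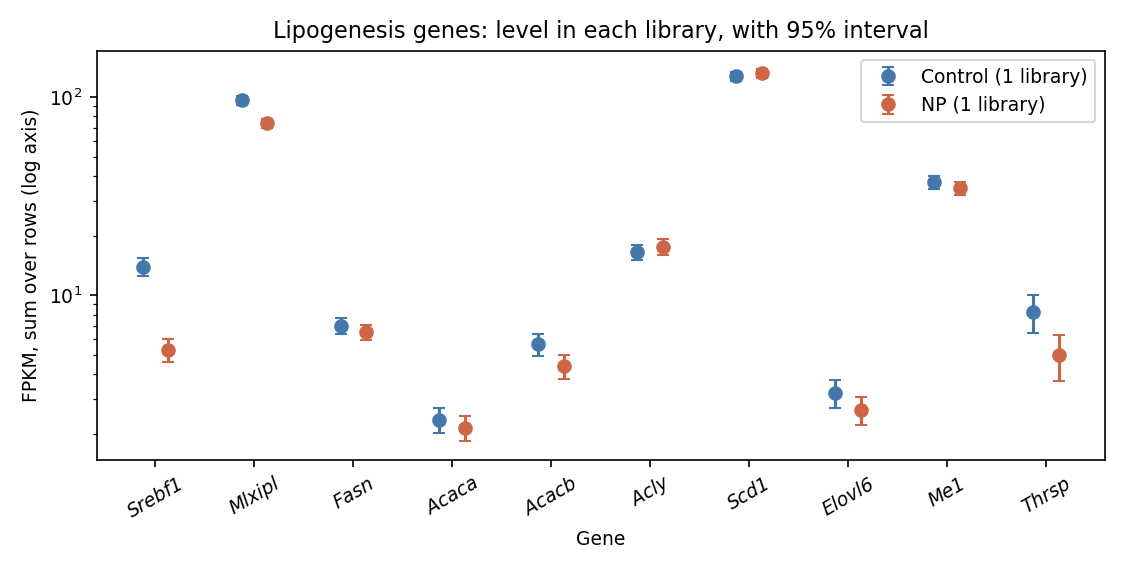
FPKM of the 10 members on a log axis, 1 point per library, with bars for the 95% interval within that library. Bars of Srebf1, Mlxipl and Thrsp do not overlap between Control and NP, and those of the 7 enzymes do.

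Sequence around annotated start sites is shown for these 3 genes, because they were the members with separate intervals and because Srebf1 has several starts. The stretches are RefSeq sequence of build GRCm38.p6, not of the mm9 build of the tables, and run from 250 bases before a start to 50 after it. Of the 10 members, 9 have such a stretch, 13 in all. Row names such as Srebf1-207 are those that GENCODE M21 gives to the same transcript identifier on GRCm38. SREBP-1a and SREBP-1c, the well-known forms of SREBP-1, come from alternative starts of Srebf1, the 1c start lying downstream, and 1c is the main form of adult liver. The downstream stretch ends 50 bases past a start that lies 6 bases from that of Srebf1-207, and the upstream one past a start 23 bases from that of Srebf1-201. Capitals mark CCAAT (the NF-Y box), CACGTG (an E-box), GGGCGG (a GC box), TATAAA or TCACNCCAC (a sterol regulatory element core) on either strand.
Srebf1 downstream start, chr11:60210422-60210721, minus strand: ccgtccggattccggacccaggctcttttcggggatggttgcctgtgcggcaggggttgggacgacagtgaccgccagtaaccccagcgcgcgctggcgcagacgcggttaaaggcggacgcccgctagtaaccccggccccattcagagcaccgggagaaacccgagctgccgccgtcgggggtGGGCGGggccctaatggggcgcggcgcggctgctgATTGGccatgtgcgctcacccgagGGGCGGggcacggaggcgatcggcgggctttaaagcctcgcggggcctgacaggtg
Srebf1 upstream start, chr11:60220578-60220877, minus strand: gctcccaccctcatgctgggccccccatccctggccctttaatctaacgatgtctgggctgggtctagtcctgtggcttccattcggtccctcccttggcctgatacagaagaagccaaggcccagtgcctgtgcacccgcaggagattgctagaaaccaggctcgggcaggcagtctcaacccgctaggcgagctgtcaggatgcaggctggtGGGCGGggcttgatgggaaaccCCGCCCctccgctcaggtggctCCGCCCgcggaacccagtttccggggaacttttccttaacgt
Mlxipl start used by its expressed rows, chr5:135106641-135106940, plus strand: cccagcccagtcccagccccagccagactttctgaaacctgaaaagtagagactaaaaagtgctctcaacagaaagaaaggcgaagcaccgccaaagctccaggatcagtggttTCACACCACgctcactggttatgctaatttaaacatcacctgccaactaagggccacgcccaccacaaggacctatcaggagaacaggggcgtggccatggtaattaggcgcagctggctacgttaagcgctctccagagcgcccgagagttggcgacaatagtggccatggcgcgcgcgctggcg
Thrsp, chr7:97417501-97417800, minus strand: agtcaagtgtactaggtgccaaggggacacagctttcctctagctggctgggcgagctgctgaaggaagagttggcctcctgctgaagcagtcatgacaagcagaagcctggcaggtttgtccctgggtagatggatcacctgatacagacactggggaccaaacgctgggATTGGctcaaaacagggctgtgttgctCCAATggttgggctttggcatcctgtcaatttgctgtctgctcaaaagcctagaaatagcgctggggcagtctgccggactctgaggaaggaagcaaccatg
The downstream Srebf1 stretch holds 1 CCAAT and 2 GC boxes, and the upstream one 3 GC boxes and no CCAAT. The Thrsp stretch holds 2 CCAAT boxes and none of the other motifs. It is placed on another annotated start than that of the expressed row Thrsp-201, which GENCODE M21 puts further upstream, and both boxes lie downstream of the Thrsp-201 start. The Mlxipl stretch holds 1 match to TCACNCCAC, the only one among the 13 member stretches, and a motif found in 1.24% of the 32851 stretches of the table. CCAAT was in 8 of the 13 member stretches (37.4% of all), GGGCGG in 5 (35.7%), and CACGTG and TATAAA in 1 each (7.15% and 13.6%). These are exact matches to fixed letter patterns and show no binding. Sites spelled otherwise are not marked, so a stretch without a match may still hold a variant of the element.

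Srebf1 lies on chromosome 11 from 60012591 to 60036083 in the mm9 coordinates of the tables, and its lower value came mostly from 1 of its rows. The tables hold 14 transcript rows for it and 1 row for the whole gene span, which can also take intronic reads. Srebf1-201, a coding transcript from the upstream start, was at 6.61 FPKM in Control (5.66 to 7.56) and at 4.74 in NP (4.05 to 5.44), 1.39-fold lower with separate intervals. Srebf1-207, a coding transcript from the downstream start, was at 6.45 FPKM in Control (5.32 to 7.58) but was listed at 0 in NP. The span row was at 0.898 and 0.587 FPKM, 1.53-fold lower. The other 12 transcript rows were listed at 0 in both libraries, so each expressed row of Srebf1 was lower in NP. Srebf1-207 held 74.8% of the difference in FPKM between the libraries, and 57.2% when FPKM were multiplied by row length.

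How far the upstream and downstream forms differed cannot be read firmly from these rows. In the GENCODE M21 exons, 3047 of the 3177 bases of Srebf1-207 (95.9%) are also in Srebf1-201, and only 130 bases are its own. As a share of the gene's FPKM, Srebf1-201 went from 47.4% in Control to 89.0% in NP, although its level was lower. Listings at 0 in 1 library are not rare in these tables. Among 9794 transcript rows of filtered genes with at least 3 FPKM in a library, 4.85% were listed at 0 in NP and 4.11% in Control. Of the 12 such rows of the members, 1 was listed at 0 in NP and 2 in Control. Whether an exact 0 means absence was not tested. G6pdx, the housekeeping enzyme at the head of the pentose phosphate pathway, was listed at 0 in both libraries, unlike Srebf1-207, and it overlaps the expressed gene Ikbkg.

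Rai1, a transcription regulator gene next to Srebf1 that is read from the opposite strand, shares 109 bases with the end of its span. These bases lie within the span of Srebf1-201 (60012591 to 60034106). Srebf1-207 (60013965 to 60023967) shares no base with the Rai1 span, which ends at 60012699. All of the Rai1 transcript rows were listed at 0 in Control. In NP, Rai1-201 was at 1.73 FPKM (1.41 to 2.04), while the span row of Rai1 was nearly equal, at 0.208 and 0.193 FPKM. The Rai1 total was thus at 0.208 FPKM in Control and 1.92 in NP, with separate intervals. To compare the neighbours, FPKM were multiplied by the length of each row in kilobases, which is about proportional to the fragments assigned. On that scale Srebf1 went from 70.0 to 34.2, a ratio of 0.488, and Rai1 at 19.6 and 30.8, so that the gain of Rai1 equalled 31.5% of the loss of Srebf1. The pair together was at 89.6 and 65.0, a ratio of 0.726. Its log2 ratio was -0.46, against -1.03 for Srebf1 alone on the same scale. Thus Srebf1 was lower in NP under each way of summing tried, with the size depending on the way. Whether reads of 1 gene were assigned to the other was not tested.

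**Figure D2:**
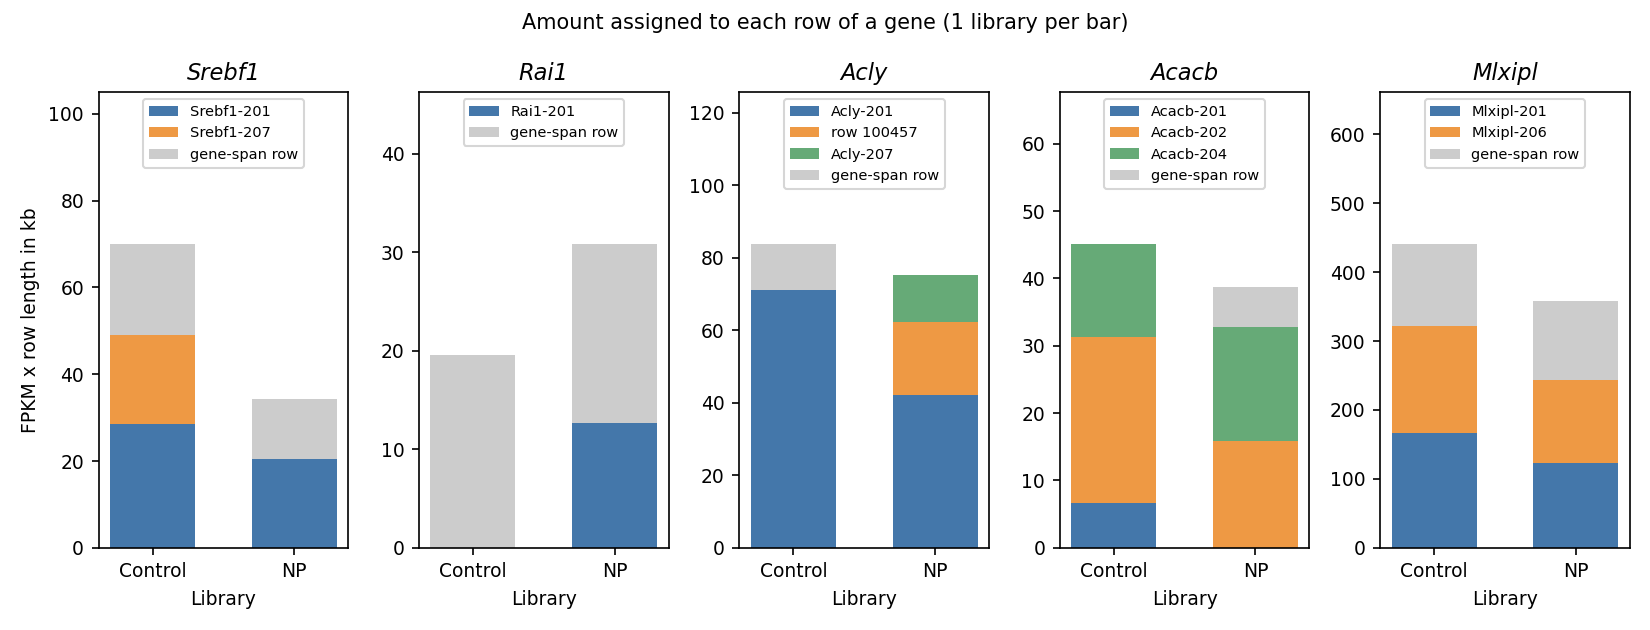
FPKM times row length in kilobases, stacked over the rows of Srebf1, its neighbour Rai1, Acly, Acacb and Mlxipl, with 1 bar per library and a separate vertical axis per gene. Srebf1-207 is present only in the Control bar, and Rai1-201 and the shorter Acly rows only in the NP bar.

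Mlxipl spans chromosome 5 from 135582761 to 135614254, overlaps no other gene of the tables and gave the same picture in both of its expressed transcript rows. Its coding transcript Mlxipl-201 was at 46.0 FPKM in Control (42.5 to 49.4) and at 33.6 in NP (31.0 to 36.3). Mlxipl-206, annotated as a target of nonsense-mediated decay, was at 46.3 FPKM (42.8 to 49.9) and 36.2 (33.3 to 39.1). Both rows were lower with separate intervals, by 1.37-fold and 1.28-fold. The span row, at 3.77 and 3.63 FPKM, had overlapping intervals.

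Among the enzymes, Acly (chromosome 11, 100337667 to 100389314) kept its total while its rows differed. The total was 16.5 FPKM in Control (15.0 to 17.9) and at 17.5 in NP (15.9 to 19.2), with overlapping intervals. Acly-201, the full-length coding transcript, was at 16.2 FPKM (14.8 to 17.7) and 9.57 (8.42 to 10.7), 1.70-fold lower with separate intervals. Acly-207 and the row ENSMUST00000100457.4, which start further downstream, were listed at 0 in Control and were at 3.15 and 4.81 FPKM in NP. The span row was at 0.244 FPKM in Control (0.197 to 0.290) and was listed at 0 in NP. By FPKM times length it held 12.6 of the gene's 83.8 in Control. The direction of Acly depended on how rows were combined: the log2 ratio was 0.09 for the FPKM sum, -0.15 for FPKM times length and -0.70 for the row with the highest mean alone. Without the span row, the FPKM sum gave 0.11.

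The acetyl-CoA carboxylases were the next step. Acaca, the cytosolic enzyme, was at 2.36 FPKM in Control (2.02 to 2.71) and at 2.15 in NP (1.84 to 2.47), the lowest of the 10 members in both libraries. Acacb, whose malonyl-CoA restrains fatty acid entry into mitochondria, was at 5.66 FPKM (4.94 to 6.38) and 4.39 (3.79 to 4.99), with intervals that overlapped narrowly. Its coding rows alone differed more. Acacb-202 was at 2.81 FPKM in Control (2.34 to 3.28) and at 1.81 in NP (1.45 to 2.17), and Acacb-201 at 0.778 FPKM in Control while its NP entry was 0. Together the coding rows were at 3.59 FPKM (3.05 to 4.13) and 1.81 (1.45 to 2.17), 1.98-fold lower with separate intervals. The share of all genes with such a difference in coding rows was not computed. Acacb-204, annotated as a transcript with a retained intron, was at 2.07 FPKM (1.60 to 2.54) and 2.53 (2.05 to 3.01), which overlap. Both Acacb and Acly thus had a gene total within 1.5-fold beside a main coding row that was lower with separate intervals.

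Fasn, Me1, Scd1 and Elovl6 each had a single row above 0, the same in both libraries, and all had overlapping intervals. Fasn, on chromosome 11 from 120667254 to 120685492, was at 7.04 FPKM in Control (6.41 to 7.68) and at 6.54 in NP (5.97 to 7.12). Me1 was at 37.1 FPKM (34.4 to 39.8) and 34.6 (32.1 to 37.1). Scd1, the stearoyl-CoA desaturase of liver (chromosome 19, 44468941 to 44482199), was the most abundant member at 126.6 FPKM (120.4 to 132.8) and 131.2 (124.9 to 137.5). Elovl6, which extends palmitate to stearate, was at 3.22 FPKM (2.72 to 3.72) and 2.65 (2.23 to 3.08). Of these 4, Scd1 had a ratio above 1 (1.04) and the other three had ratios of 0.929 (Fasn), 0.933 (Me1) and 0.825 (Elovl6).

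Ordered by level in Control, the members ran from Scd1 through Mlxipl, Me1, Acly, Srebf1, Thrsp, Fasn, Acacb and Elovl6 to Acaca. Neighbours in that order had overlapping intervals for Acly with Srebf1 and for Thrsp with Fasn. In NP the order was the same except that Fasn stood above Srebf1 and Thrsp. There the intervals of Fasn and Srebf1, of Srebf1 and Thrsp, of Thrsp and Acacb, and of Elovl6 and Acaca overlapped. Srebf1 was thus at a level near that of Acly in Control and near that of Fasn and Thrsp in NP.

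The regulators upstream of SREBP-1 and ChREBP were mostly within 1.5-fold between the libraries. Of 25 such genes, 24 passed the filter. None was higher by 1.5-fold (0 of 24, against 3.6% of all genes) and 2 were lower by that size (against 5.33%). The median log2 ratio was -0.06. Intervals were separate with NP lower for 4 (Ppargc1b, Usf1, Insig2 and Sp1), against 9.58% of all genes, and with NP higher for 1, against 7.73%. Ppargc1b, a coactivator of SREBP-1, was at 3.32 FPKM in Control (2.68 to 3.97) and at 1.04 in NP, 3.20-fold lower with separate intervals. Nearly all of its FPKM was in 1 transcript row. By FPKM times length its log2 ratio was -1.05, a smaller drop than that fold. Usf1, an E-box factor, was at 15.1 and 9.72 FPKM, but its log2 ratio of -0.59 was -0.17 by FPKM times length, and it overlaps the expressed gene Tstd1. Insig2, which holds the SREBP precursor in the endoplasmic reticulum, was at 255 FPKM (244 to 267) and 208 in NP, 1.23-fold lower with separate intervals. Insig1, with the same role and itself an SREBP target, was at 41.8 FPKM in Control (38.7 to 44.9) and at 49.7 in NP, the gene with an NP interval wholly above. The escort Scap, at 34.2 and 33.0 FPKM, and Nr1h3, which encodes the oxysterol receptor LXR alpha that activates Srebf1, at 39.8 and 40.8 FPKM, had overlapping intervals. So had Nfya, an NF-Y subunit with the highest ratio of the list (2.36 and 3.18 FPKM), Mlx, the partner of ChREBP, which overlaps the expressed gene Psmc3ip (16.4 and 19.4 FPKM), and Mid1ip1, a relative of Thrsp that activates acetyl-CoA carboxylase (8.08 and 5.93 FPKM).

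Genes that supply acetyl-CoA and NADPH had no member past 1.5-fold among 9 of 10 that passed the filter, with a median of -0.09. Of all genes, 3.6% were higher and 5.33% lower by that size, and 7.73% had an NP interval wholly above. Acss2, which makes acetyl-CoA from acetate, was the single gene with separate intervals, at 14.5 FPKM in Control (12.9 to 16.1) and at 18.5 in NP, and it overlaps the expressed gene Gss. Pklr, liver pyruvate kinase and a ChREBP target, was at 22.6 and 26.8 FPKM, and Slc25a1, the citrate carrier, at 114 and 116 FPKM. The lowest ratios were those of Pdha1, Pgd and Slc25a10, with log2 ratios of -0.17, -0.15 and -0.14. All 5 of these other than Acss2 had overlapping intervals.

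In elongation, desaturation and esterification, 17 of 19 genes passed the filter, with 0 higher and 1 lower by 1.5-fold and a median of -0.02. The shares of all genes at that size were 3.6% and 5.33%. Intervals were separate with NP lower for 3, against 9.58% of all genes. The lower gene was Elovl3, an elongase of long saturated chains, at 174 FPKM in Control and 43.6 in NP. Fads2, a desaturase of polyunsaturated fatty acids, was at 222 and 185 FPKM and Lpin2, a phosphatidate phosphatase, at 103 and 91.1 FPKM, both lower with separate intervals. The highest ratios were those of Mogat1, Elovl1 and Lpin1, at 1.19 and 1.80 FPKM, 15.7 and 19.0 FPKM, and 24.4 and 28.1 FPKM, with overlapping intervals. Pnpla3, a SREBP-1c target, had all of its FPKM in the span row, at 0.190 and 0.116, and did not pass.

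Other known targets of SREBP-1c, LXR or ChREBP went in both directions. Of 12 genes 11 passed, 1 was 1.5-fold higher (3.6% of all genes) and 1 lower (5.33%), and the median was -0.08. Txnip, a ChREBP target that restrains glucose uptake, was at 46.2 FPKM in Control (42.8 to 49.6) and at 81.2 in NP, and overlaps the expressed gene Gm15441. The LXR targets Abcg8, Abcg5 and Lpcat3 were lower with separate intervals, at 27.9 and 17.7 FPKM, 42.1 and 34.8 FPKM, and 48.0 and 37.7 FPKM. These were 3 of the 11, against 9.58% of all genes. Abca1 and Mylip, also LXR targets, had overlapping intervals, Abca1 at 14.1 and 13.8 FPKM. Abcg5 and Abcg8, which encode the partners of a sterol exporter, overlap each other. Lpcat3 overlaps the expressed gene Emg1. Abcg5 and Lpcat3 are named for their separate intervals, and Abca1 as an LXR target without them, after their values were seen. Cidec and Mylip, with log2 ratios of -0.35 each, and Khk and Plin2, with 0.08 and 0.04, had overlapping intervals.

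**Figure D3:**
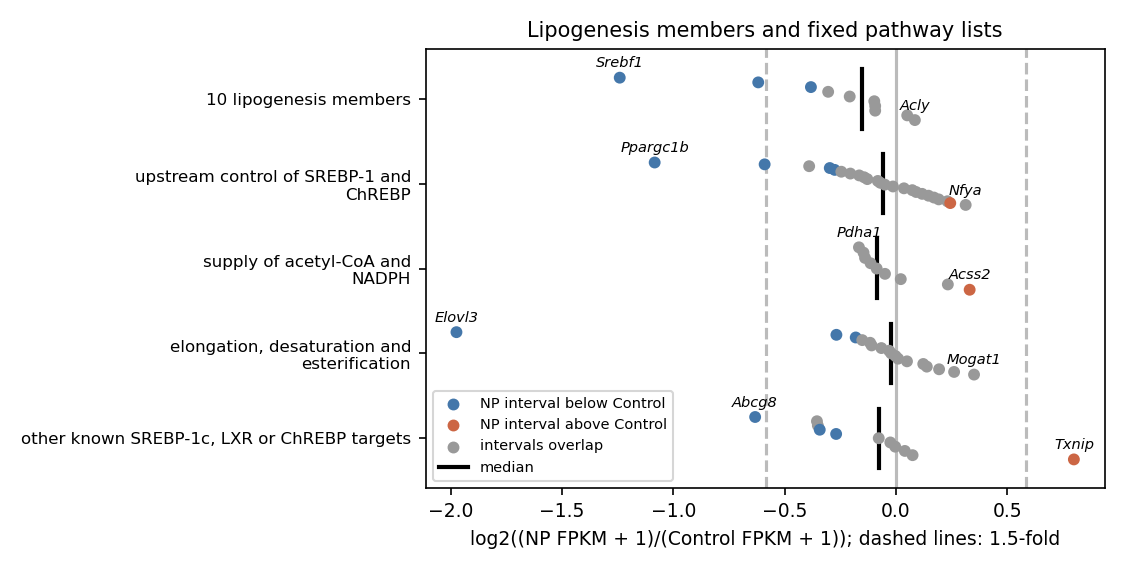
Log2 ratio of NP over Control for the 10 members and for the genes past the filter in the 4 pathway lists, 1 point per gene, coloured by whether the 95% intervals overlap, with a bar at each median and dashed lines at 1.5-fold. Medians lie between -0.15 and -0.02, and points beyond the lines are single genes such as Srebf1, Ppargc1b, Elovl3, Abcg8 and Txnip.

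The labelled tissue was borne out by the levels of 7 hepatocyte markers, from Cps1 at 343 and 353 FPKM to Alb at 21660 and 30741 FPKM. All 7 had a log2 ratio above 0, while 54.4% of all filtered genes had one below 0. Of the 7, 4 (Alb, Apoa1, Tat and Ttr) had separate intervals with NP higher, against 7.73% of all genes. Apoc3, Cps1 and Serpina1a, with log2 ratios of 0.05, 0.04 and 0.01, had overlapping intervals. The summed level of the 7 was 39677 FPKM in Control and 51411 in NP. Fat tissue also runs this pathway, and the summed level of 8 adipocyte markers was 18.3 FPKM in Control and 23.3 in NP. The 3 that passed the filter had overlapping intervals, with Fabp4 at 9.12 and 12.8 FPKM, Pparg at 3.48 and 4.90 FPKM and Lipe at 5.72 and 5.02 FPKM. Adipoq was at 0.0183 and 0.0820 FPKM. Plin1 and Cfd were listed at 0 in Control and were at 0.0524 and 0.370 FPKM in NP. Lep and Retn were listed at 0 in both, and whether a 0 means absence was not tested. Kupffer cell and endothelial markers had a ratio below 0 in 7 of 7 genes past the filter, as had 54.4% of all filtered genes. Of these 7, 4 had separate intervals with NP lower, against 9.58% of all genes. By log2(FPKM + 1), 1 of them (Clec4f) was lower by 1.5-fold, against 5.33% of all genes. Lyve1 and Cd5l, with log2 ratios of -0.58 and -0.57, lay just short of that size. By plain FPKM, Kdr, Cd5l, Vsig4 and Lyve1 were also lower by more than 1.5-fold, while Clec4g and Stab2 were not. The share of all genes at that size by plain FPKM was not computed. Vsig4 (3.02 and 1.78 FPKM) and Lyve1 (1.57 and 0.711 FPKM) were at low levels with overlapping intervals. The summed level of the 8 genes found, including Emr1, which did not pass, was 95.7 FPKM in Control and 61.0 in NP. What part the hepatocyte, Kupffer cell and endothelial differences had in the values of the lipogenic regulators was not tested. In bulk liver, fewer cells of a type and less RNA per cell cannot be told apart. Read coverage divided by FPKM was 2.29 for Control against 2.92 for NP, so NP was the deeper library by 1.28-fold, and the number of fragments is unknown.

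**Figure D4:**
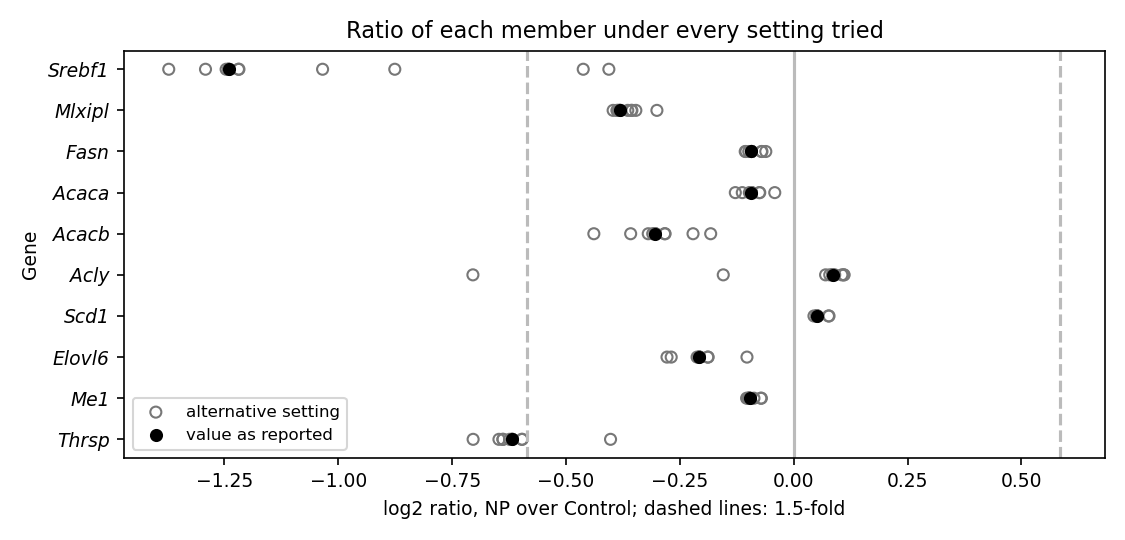
Log2 ratio of each member under every setting tried, with filled points for the value as reported and open points for the alternatives, and dashed lines at 1.5-fold. Srebf1 runs from -1.37 to -0.41 and stays below 0, Acly has points on both sides of 0, and the other 8 members keep their sign.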

How the data were processed

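RNA-seq of 1 Control and 1 NP liver library was analysed from the deposited tables, which hold FPKM with 95% intervals, row lengths and read coverage, a signal not scaled to library size, per the file headers. The submitters' processing notes name TopHat2 2.1.0, Cufflinks 2.2.1.0 and mm9 without roles or settings. Per the labels' protocols, Trizol was used for the RNA and an Illumina TruSeq RNA kit for the libraries. Strandedness is not given in the sources used here.

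Rows sharing a gene identifier were added up, with half-widths joined in quadrature, which ignores covariance between rows and gives a row at 0 no width. Starts count from 1. The filter asked for a mean FPKM of 1 or more, OK status throughout, a transcript of 300 nt or longer and no small RNA name, and left 10533 of 37146 genes. Ratios, log2((NP + 1)/(Control + 1)), shrink the differences of low genes and were called at 1.5-fold; folds of single genes are of plain FPKM. All members, genes overlapping Srebf1, list genes with a needed role and up to 3 genes at each end of a list were to be named, and 1 of these is not reported here. The members and lists were chosen with earlier results of these data known. The size and interval rules were tried on simulated data with planted differences far beyond 1.5-fold. That cannot show how they perform near 1.5-fold or with wider intervals. Alternatives covered the pseudocount, filter, scaling, rows, status and fold. Python 3.11.15, pandas 2.3.3, numpy 2.4.6 and matplotlib 3.10.9 were used.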

Additional observations from a re-analysis of the deposited data

How the results depend on the processing

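The count of members at least 1.5-fold lower in NP, 2 of 10, was 1 with a pseudocount of 5 FPKM, 1 at a size of 2-fold, and 1 without Srebf1; it was 2 under the other 9 settings run, although with the highest row of each gene the 2 were Acly and Thrsp, and no member was 1.5-fold higher under any setting. The median log2 ratio of the members stayed between -0.28 (the highest row of each gene) and -0.10 (a pseudocount of 5 FPKM). The log2 ratio of Srebf1 was -0.88 with a pseudocount of 5 FPKM, -0.41 for its highest row and -0.46 together with Rai1, the last chosen after seeing the data, as were FPKM times length and the version without Srebf1. That of Acly was -0.70 for its highest row and -0.15 by FPKM times length, which includes its span row. The share of the gene total gave Srebf1-201 a log2 ratio of 0.90 and the Srebf1 span row 0.69, both below 0 as levels. Scaling moved the median of all genes by at most 0.02. No paired analysis was possible because each group is 1 library. Precision is limited by 1 library per group and, for Thrsp, by an interval half-width of 21.9% in Control and 26.1% in NP.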
